A study of Mus musculus with 6 samples.

Results

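The 37 genes described here encode the transport machinery of the primary cilium and the ciliary proteins that carry or restrain hedgehog signalling. They were chosen by symbol from 48397 gene symbols, and all 37 were among the 16198 genes with enough reads to be tested. By role they comprise 11 genes of the intraflagellar transport complex IFT-B, 6 of IFT-A, 3 motor subunits, 6 of the BBSome, 2 BBS chaperonin genes, 2 genes of the ciliary membrane and 7 hedgehog regulators. Expression was measured by bulk RNA sequencing of live EGFP-positive cells sorted from mouse lungs at postnatal day 8. All pups carried 1 PdgfraEGFP reporter allele, which places EGFP under the control of the PDGF receptor alpha gene of mesenchymal cells. Their dams, timed pregnant and also PdgfraEGFP/+, had received an intraperitoneal injection late in gestation (E18.5). The injection held either 5E1, a monoclonal antibody against hedgehog ligands (3 libraries), or control IgG (3 libraries). No strain or dose is given in the sources used here. Whether each library stands for its own pup, a pool or a litter is not said. The p-values thus cover only the spread among these 6 samples, which may be partly technical. IgG samples carry the lower sample numbers and 5E1 samples the higher ones, so the antibody and the sample number cannot be told apart.

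The primary cilium is a single microtubule-based projection that most mesenchymal cells carry. IFT-B trains driven by kinesin-II move cargo toward its tip, IFT-A trains driven by dynein-2 return it and help membrane proteins to enter, and the BBSome exports membrane proteins. In vertebrates, hedgehog ligands act through this organelle. Ligand removes the receptor PTCH1 from the cilium, Smoothened then accumulates there, and the GLI transcription factors switch from repressors to activators. Without ligand, GPR161 and protein kinase A favour GLI repressors, so cilium genes can both carry and restrain the signal. In the growing lung the ligand is made mainly by epithelium and received by mesenchyme.

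Reads assigned to genes numbered 16958433 to 28405457 in the IgG libraries and 18857199 to 34318583 in the 5E1 libraries, and the members drew 283 (Bbs10) to 9613 (Evc) reads over all 6. Levels are given as CPM, read counts scaled to one common library total. Pdgfra, the gene behind the sort, lay at 413 to 556 CPM in IgG and at 574 to 720 CPM in 5E1. Its log2 fold change of 0.36 did not pass the test (edgeR adjusted p 0.0742). IgG replicate 3 and 5E1 replicate 1 held almost no Y-linked reads, while the other 4 libraries held both Y-linked and Xist reads. Libraries within each group thus differed in sex-linked reads. Ptch1, the receptor gene that the pathway induces, fell from 411 ± 4.92 to 90.1 ± 10.4 CPM (SD, n = 3 each), and Gli1 from 125 ± 14.8 to 57.5 ± 11.9 CPM, with edgeR adjusted p of 4.12e-06 and 0.00109. Hhip, which encodes a ligand-binding antagonist, fell from 521 ± 75.8 to 101 ± 18.4 CPM, with an edgeR adjusted p of 1.84e-05.

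Among the ciliary genes, those that passed the test were all lower in 5E1. Gpr161, Tulp3, Bbs7, Ift122, Wdr35, Kif3a and Inpp5e fell, by 1.25-fold (Inpp5e) to 1.61-fold (Bbs7). No member was called higher by edgeR, DESeq2 or limma-voom, and 2 members, Bbs2 and Bbs9, were higher at an unadjusted p under 0.05. With edgeR at an adjusted p under 0.05, 7 of 37 members (18.9%) were lower and 30 were not called. Among all 16198 genes tested, 11.1% were called lower, 12.1% higher and 23.2% in either direction. DESeq2 called 7 members lower and limma-voom 8. None of the members passed the test with a change of 2-fold or more, against 7.96% of all genes. In bulk RNA, fewer cells of a type and less RNA per cell cannot be told apart.

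The median log2 fold change (5E1 over IgG) of the 37 members was -0.20, with a range from -0.68 (Bbs7) to 0.43 (Bbs9), while the median of all genes was 0.00. Of the members, 30 (81.1%) had a value below 0, against 49.9% of all genes. With library size alone as the scaling, the medians were -0.35 for the members and -0.14 for all genes, so that the members stood 0.20 below the rest under either scaling. That scaling called 14 members lower, with 20.2% of all genes called lower, and changed the split of all calls from 1966 higher and 1791 lower to 1312 higher and 3274 lower. The 95% interval of the change lay within 2-fold in either direction for 35 of 37 members (94.6%) and for 63.5% of all genes. Ift22 and Bbs12 were the exceptions. Without IgG replicate 1, 2 or 3 edgeR called 3, 4 and 5 members lower, and 6.78%, 6.44% and 6.78% of all genes. Leaving out 5E1 replicate 1, 2 or 3 gave 6, 6 and 4 members, and 10.9%, 10.3% and 6.46% of all genes. Without 5E1 replicate 1, Bbs9 was called higher.

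In each library the 37 genes together gave 1118 to 1136 CPM for IgG and 965 to 1033 CPM for 5E1, so the summed levels of the groups did not overlap. All 3 5E1 libraries lay below all 3 IgG libraries for 16 members (43.2%), against 21.4% of all genes. For 1 member, Bbs2, all 5E1 libraries lay above, against 20.8% of all genes, and for 20 the groups overlapped. The lowest of the 6 values was found in 5E1 replicate 2 for 17 members and in 5E1 replicate 3 for 10. Across all genes, 23.7% had their lowest value in 5E1 replicate 2 and 16.5% in 5E1 replicate 3. Without 5E1 replicate 2 the median of the members was -0.13.

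**Figure D1:**
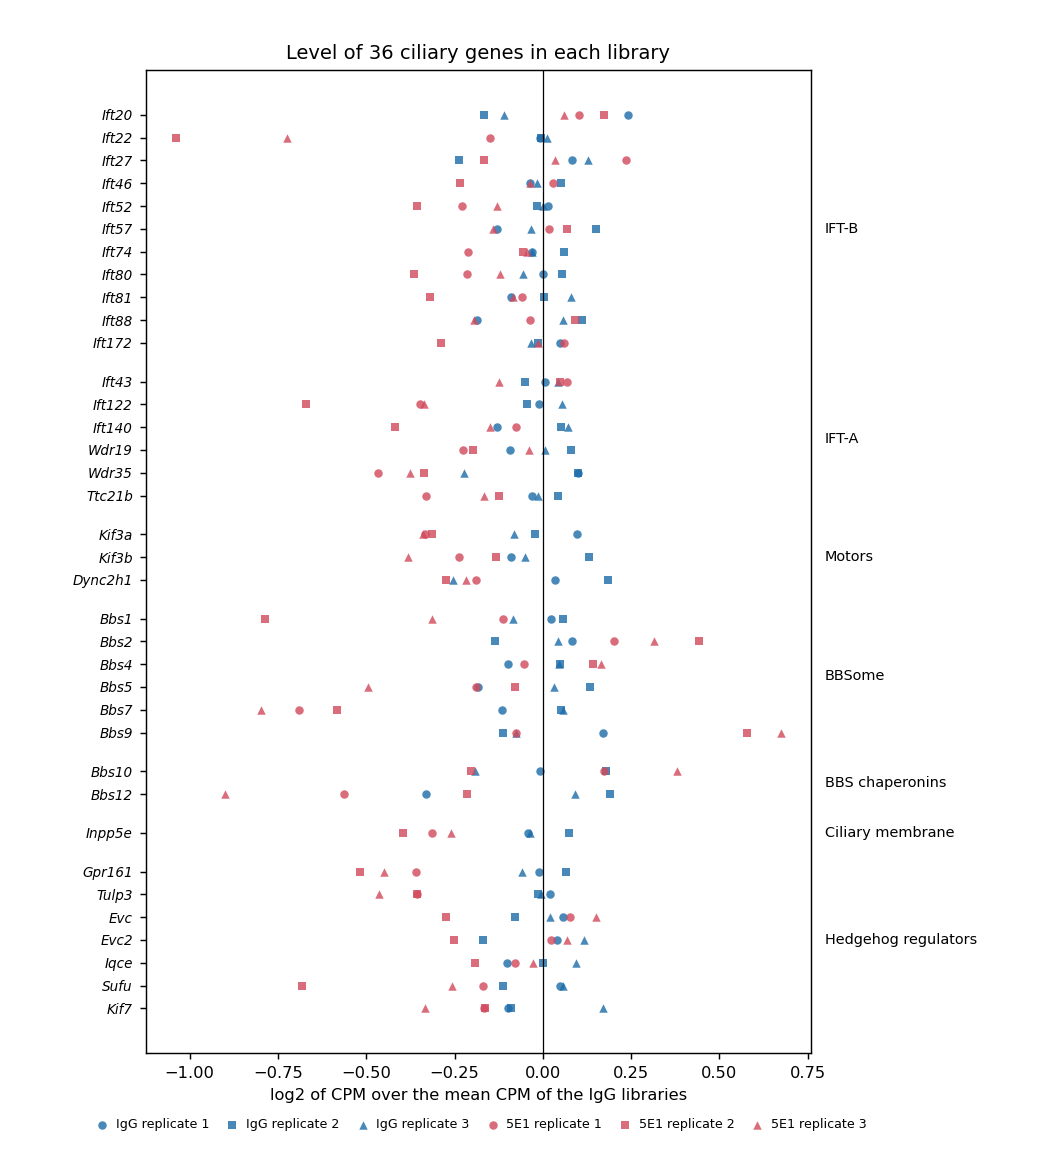
Level of 36 of the 37 members (rows, ordered by role) in each library, as the log2 of its CPM over the mean CPM of the IgG libraries (x axis). IgG libraries are blue and 5E1 libraries red, with a marker shape for each replicate number. Most 5E1 points lie left of 0, 17 members have their lowest value in 5E1 replicate 2, and the 5E1 points of Bbs2 lie right of its IgG points.

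The hedgehog regulators Gpr161 and Tulp3 are, with Bbs7, the 3 members of smallest p. GPR161 is an orphan receptor of the ciliary membrane that raises cyclic AMP and so favours GLI repressors. Its gene (chr1:165295789-165326745, plus strand, GRCm38) gave 58.4, 61.5 and 56.4 CPM in the IgG libraries and 45.9, 41.1 and 43.0 CPM in the 5E1 libraries. The groups were well apart, with 58.8 ± 2.55 against 43.3 ± 2.40 CPM (SD, n = 3 each). The fall was 1.36-fold, with a log2 fold change of -0.44 (SE 0.08) and an edgeR adjusted p of 0.00416. TULP3 is the adaptor that links IFT-A to membrane receptors, GPR161 among them, and brings them into the cilium. Tulp3 (chr6:128321161-128355851, minus strand) gave 66.4, 64.9 and 65.3 CPM in IgG and 51.2, 51.2 and 47.5 CPM in 5E1. All 3 5E1 values were again below all IgG values. This was 1.31-fold lower, with a log2 fold change of -0.39 (SE 0.08) and an edgeR adjusted p of 0.00521. Both genes are known as restraints on the pathway, and both were called in all 14 of the alternative analyses run.

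Sufu, Kif7 and the Evc group were not called. SUFU holds GLI proteins in the cytoplasm and is the main negative regulator downstream of Smoothened. Sufu gave 57.6, 51.5 and 57.9 CPM in IgG and 49.4, 34.7 and 46.6 CPM in 5E1. These groups did not overlap, although 5E1 replicate 2 lay far below the other two, and the log2 fold change of -0.36 (SE 0.13) had an edgeR adjusted p of 0.0648. Sufu was called in 4 of the 14 alternatives and missed the threshold in the others, RLE size factors, DESeq2 and limma-voom among them. With 5E1 replicate 1 left out the adjusted p of Sufu was 0.0329, with library size alone 0.00965 and with no low-count filter 0.00419. Over the fits without 1 library, its edgeR adjusted p reached 0.169. KIF7, a kinesin of the cilium tip that organises GLI and SUFU there, had a log2 fold change of -0.22 and an edgeR adjusted p of 0.236. Exons of Kif7 share 928 bases with other annotated genes.

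EVC and EVC2 form a complex at the base of the cilium that passes the signal from activated Smoothened, and IQCE anchors that complex. Their genes lie head to head on chr5, 1604 bases apart, with Evc at 37289098 to 37336894 on the minus strand and Evc2 at 37338499 to 37425055 on the plus strand. Evc, the regulator with the second highest CPM in IgG, gave 65.5, 59.6 and 63.8 CPM there and 66.3, 52.1 and 69.9 CPM in 5E1. Evc2 gave 46.9, 40.5 and 49.4 CPM in IgG and 46.3, 38.3 and 47.9 CPM in 5E1. Both were lowest in 5E1 replicate 2 and overlapped between groups. The ratio of Evc to Evc2 ran from 1.29 to 1.47 in IgG and from 1.36 to 1.46 in 5E1. Evc changed by -0.01 on the log2 scale (95% interval -0.25 to 0.24) and Evc2 by -0.05 (-0.29 to 0.20), and the sign of Evc turned with RLE size factors or DESeq2. Iqce stood at -0.10 (-0.32 to 0.12). For comparison, the Smoothened gene Smo, which is not a member, had a log2 fold change of -0.22 with an edgeR adjusted p of 0.206, and Gli2 and Gli3 stood at -0.18 and 0.01.

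On the ciliary membrane, INPP5E is the phosphatase that keeps its phosphoinositides distinct from those of the plasma membrane, a makeup that limits TULP3-borne receptors. Inpp5e (chr2:26396249-26409203, minus strand) gave 26.4, 28.6 and 26.5 CPM in IgG and 21.8, 20.6 and 22.7 CPM in 5E1. It was 1.25-fold lower, with a log2 fold change of -0.32 (SE 0.10) and an edgeR adjusted p of 0.0408. This call ended when any 1 of the 6 libraries was left out (adjusted p of 0.0678 to 0.127). It also ended under DESeq2 (0.0503), when low counts were not filtered (0.0508) and with a term that marks the libraries lacking Y-linked reads (0.0504). The replicate number as a block ended the call too. The exons of Inpp5e share 874 bases with Pmpca on the opposite strand, which itself fell from 38.7 to 28.2 CPM (edgeR adjusted p 0.00568). The sources used here do not give the strand setting of the counting, so how reads over those bases were assigned is not known.

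IFT-A, the complex that returns cargo from the tip and loads TULP3, had 2 of 6 genes lower, where 11.1% of all genes were, and none higher, with a median log2 fold change of -0.20. Ift122 encodes a subunit of its core and Wdr35 a peripheral subunit. Ift122 (chr6:115853470-115926699, plus strand) gave 30.7, 29.96 and 32.1 CPM in IgG and 24.3, 19.4 and 24.5 CPM in 5E1. The groups did not overlap, and 5E1 replicate 2 was the lowest. The fall was 1.36-fold, with a log2 fold change of -0.45 (SE 0.11) and an edgeR adjusted p of 0.0175. Leaving out IgG replicate 1 or 3 brought the adjusted p of Ift122 to 0.0536 and 0.0631. Wdr35 (chr12:8973892-9028847, plus strand) gave 35.1, 35.1 and 28.0 CPM in IgG and 23.7, 25.9 and 25.2 CPM in 5E1. IgG replicate 3 lay nearer to the 5E1 libraries than to its own group. Wdr35 was 1.31-fold lower, with a log2 fold change of -0.39 (SE 0.11) and an edgeR adjusted p of 0.0305. Its call ended without IgG replicate 1 (0.122), IgG replicate 2 (0.105), 5E1 replicate 1 (0.0721) or 5E1 replicate 3 (0.0767).

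The other 4 IFT-A genes were not called. Ift140, a further core subunit, stood at -0.21 on the log2 scale (95% interval -0.47 to 0.06), Ttc21b at -0.20 (-0.45 to 0.05) and Wdr19 at -0.15 (-0.40 to 0.10). Ift43, whose product is the smallest peripheral subunit, gave 27.3, 26.3 and 28.0 CPM in IgG and 28.5, 28.1 and 24.9 CPM in 5E1. Its change of -0.00 (-0.22 to 0.22) had no fixed sign, since RLE size factors, DESeq2 and the filter of 5 CPM in 3 libraries each gave a value just above 0.

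IFT-B, which carries tubulin and other cargo toward the tip, had none of its 11 genes called in either direction by edgeR, against 23.2% of all genes. At an unadjusted p under 0.05, 3 were lower and none was higher, while DESeq2 and limma-voom each called 1 lower. The median log2 fold change was -0.08. The gene called by those tools was Ift22, which encodes a small GTPase-like subunit of the core. Ift22 gave 12.3, 12.3 and 12.5 CPM in IgG and 11.1, 6.01 and 7.47 CPM in 5E1. The IgG libraries were close to each other, and the 5E1 libraries, all lower, spread widely. The change of -0.60 on the log2 scale (SE 0.21) reached an edgeR adjusted p of 0.0584. The adjusted p fell to 0.00519 without 5E1 replicate 1, and was 0.0339 with DESeq2 and 0.0243 with limma-voom. Ift22 was called in 6 of the 14 alternatives, and over the fits without 1 library its edgeR adjusted p reached 0.163.

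The other IFT-B genes had changes between -0.24 and 0.11. Ift88, the gene whose loss is the classic model of absent cilia, stood at -0.04 (95% interval -0.32 to 0.25), a sign that turned without IgG replicate 2 or 5E1 replicate 3. Ift172 stood at -0.08 (-0.30 to 0.15), Ift74 at -0.10 (-0.31 to 0.11) and Ift81, its tubulin-binding partner, at -0.15 (-0.38 to 0.07). Ift46, the IFT-B gene with the highest CPM, gave 54.8, 58.2 and 55.6 CPM in IgG and 57.3, 47.8 and 54.8 CPM in 5E1. Its groups overlapped, and its change was -0.08 (-0.28 to 0.12). Ift20, which also sorts cargo at the Golgi, stood at 0.11 (-0.14 to 0.36) and at -0.03 with library size alone. Ift52 and Ift80 had the other unadjusted p values under 0.05, with changes of -0.24 and -0.23 and edgeR adjusted p of 0.121 and 0.110. Ift27, a GTPase that links trains to BBSome export, stood at 0.04 (-0.26 to 0.33) and turned to -0.11 with library size alone.

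Of the motors, Kif3a was lower and the other two were not called. Kif3a and Kif3b encode the motor subunits of kinesin-II. Kif3a (chr11:53567379-53601967, plus strand) gave 37.3, 34.3 and 33.0 CPM in IgG and 27.7, 28.0 and 27.5 CPM in 5E1. The 5E1 values were within 1 CPM of each other and all below IgG. The fall was 1.26-fold, with a log2 fold change of -0.33 (SE 0.09) and an edgeR adjusted p of 0.0265. The adjusted p of Kif3a was 0.128 without IgG replicate 1, 0.0625 without IgG replicate 2, 0.0506 without 5E1 replicate 1 and 0.0760 without 5E1 replicate 3. Kif3b, the motor gene with the highest CPM, gave 41.3, 48.2 and 42.4 CPM in IgG and 37.3, 40.1 and 33.7 CPM in 5E1. Its groups did not overlap either, with a change of -0.25 (95% interval -0.47 to -0.02) and an edgeR adjusted p of 0.103. The ratio of Kif3a to Kif3b overlapped between groups, at 0.713 to 0.903 in IgG and 0.699 to 0.817 in 5E1. Dync2h1, the heavy chain of the retrograde motor, stood at -0.22 (-0.47 to 0.03).

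**Figure D2:**
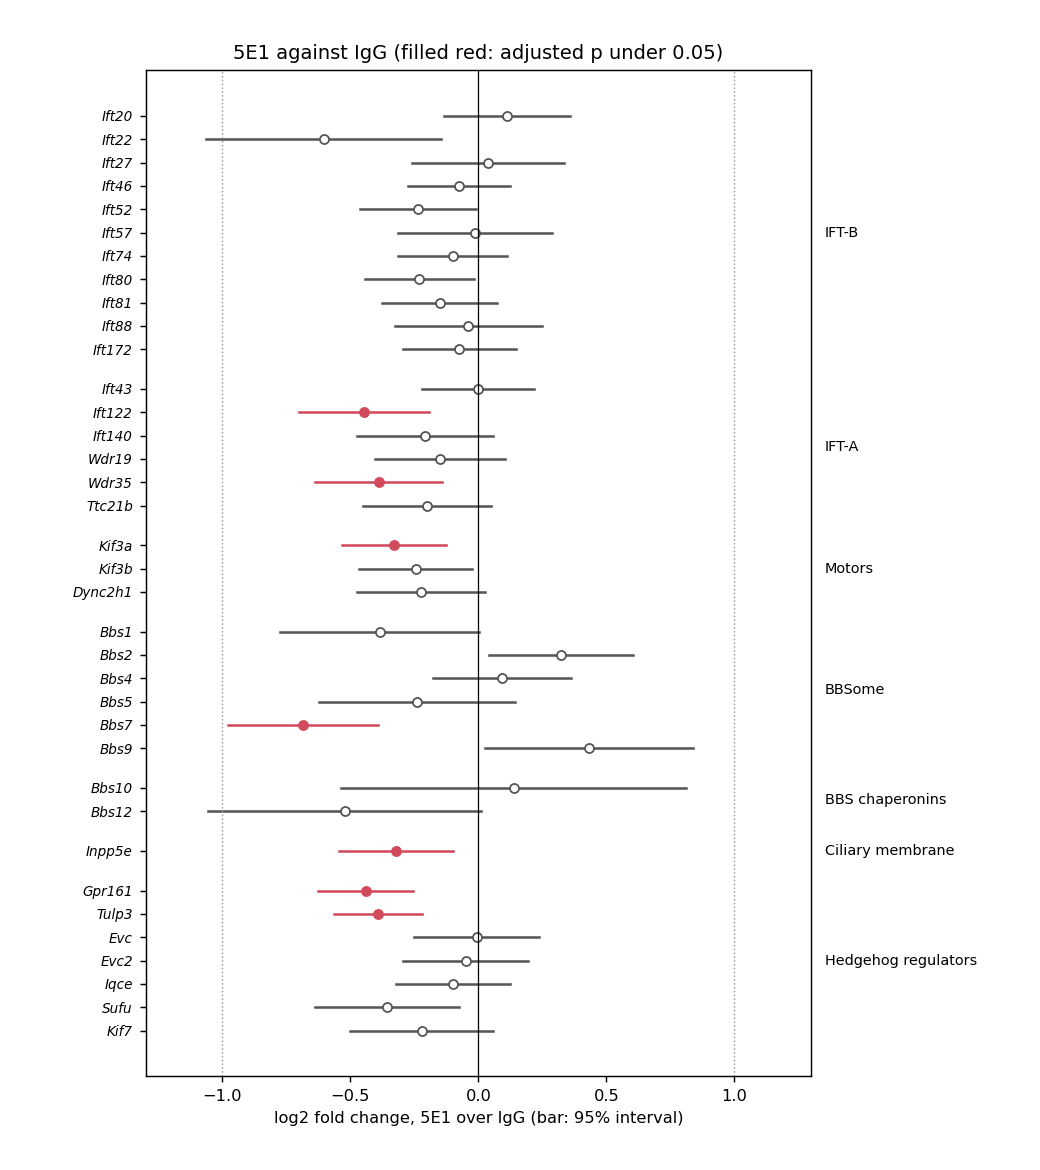
Log2 fold change (5E1 over IgG, x axis) of 36 of the 37 members with its 95% interval, by role, with called members in filled red and dotted lines at a 2-fold change. All intervals shown but those of Ift22 and Bbs12 lie between the dotted lines, the 7 called members are on the lower side, and Bbs9 (0.43) and Bbs2 (0.32) lie farthest to the higher side.

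The BBSome was the role group whose members spread most around 0, from Bbs7 at -0.68 to Bbs9 at 0.43, with a median of -0.07. BBS7 and BBS2 are partners in the early assembly of the complex, and BBS9 joins them there. Bbs7 (chr3:36573142-36613477, minus strand) gave 15.1, 16.9 and 16.95 CPM in IgG and 10.1, 10.9 and 9.39 CPM in 5E1. The groups were far apart, and the fall was the largest of all members at 1.61-fold (log2 fold change -0.68, SE 0.13, edgeR adjusted p 0.00450). Bbs7 was called in all 14 alternatives. Its downstream neighbour on the same strand, 991 bases away, is the cyclin gene Ccna2, which fell from 42.1 to 11.2 CPM (edgeR adjusted p 0.0161). The exons of Bbs7 and Ccna2 share no bases, and the part of neighbouring transcription in the Bbs7 value was not tested.

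Bbs2 gave 14.5, 12.4 and 14.1 CPM in IgG and 15.7, 18.55 and 17.01 CPM in 5E1. All 5E1 values were above all IgG values, with a log2 fold change of 0.32 (SE 0.13), but the edgeR adjusted p of 0.0927 missed the threshold in the reported fit and in all 14 alternatives. Bbs9 gave 20.1, 16.5 and 16.9 CPM in IgG and 16.9, 26.6 and 28.4 CPM in 5E1. Here 5E1 replicate 1 lay among the IgG libraries and the other two 5E1 libraries far above, with a log2 fold change of 0.43 (SE 0.18) and an edgeR adjusted p of 0.117. The adjusted p of Bbs9 was 0.00764 when 5E1 replicate 1 was left out and 0.0164 when low counts were not filtered. Bbs9 was called in only these 2 of the 14 alternatives. Over the fits without 1 library, its edgeR adjusted p reached 0.354. Within libraries, the ratio of Bbs7 to Bbs2 ran from 1.04 to 1.36 in IgG and from 0.552 to 0.644 in 5E1. The ratio of Bbs9 to Bbs7 ran from 0.974 to 1.33 in IgG and from 1.67 to 3.03 in 5E1. Both ratios were formed from genes picked for opposite changes, so their separation between groups follows from that choice and is no further support.

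The remaining BBSome genes overlapped or missed the threshold. Bbs1, whose product binds the membrane GTPase that recruits the complex, stood at -0.38 (95% interval -0.77 to 0.00). Bbs5, a phosphoinositide-binding subunit, stood at -0.24 (-0.62 to 0.14), and Bbs4 at 0.09 (-0.18 to 0.36), or -0.06 with library size alone. The chaperonin genes Bbs10 and Bbs12, which serve BBSome assembly, were not called in either direction by edgeR, DESeq2 or limma-voom and had no unadjusted p under 0.05. Bbs12 gave 4.53, 6.50 and 6.06 CPM in IgG and 3.86, 4.91 and 3.06 CPM in 5E1. Bbs10, the least abundant member at 1.56 to 2.02 CPM in IgG and 1.55 to 2.32 CPM in 5E1, had an interval from -0.54 to 0.81, and a change within it was not detectable at this depth.

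**Figure D3:**
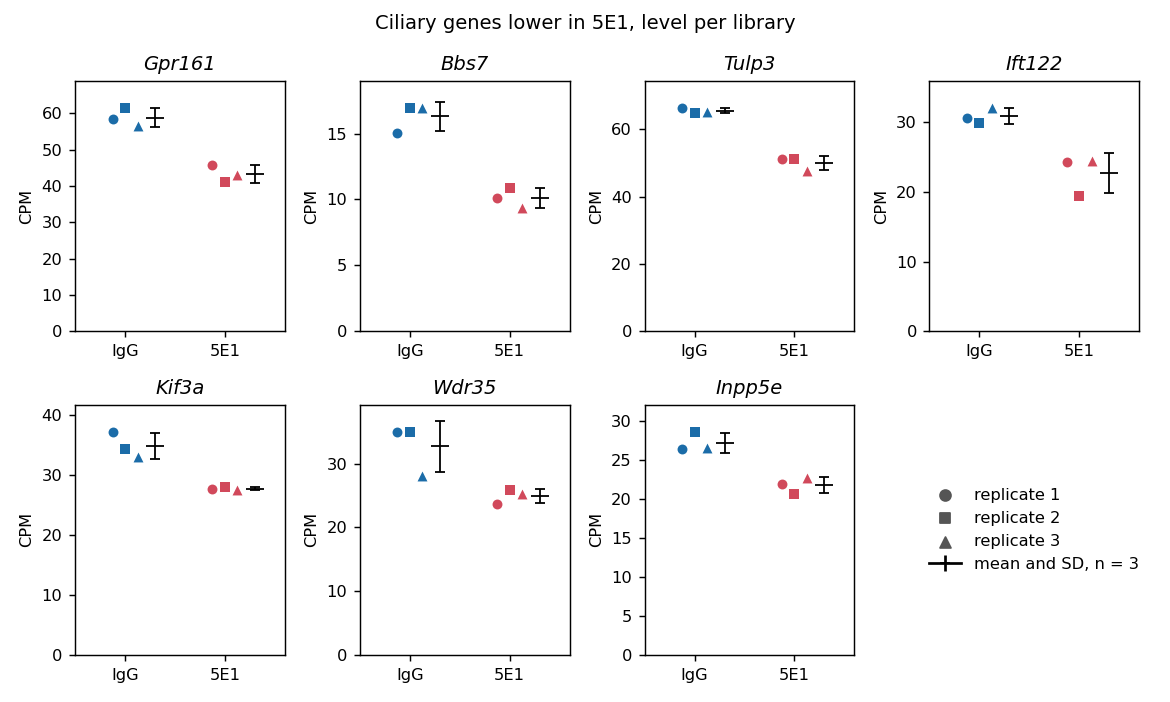
Level in CPM (y axis, from 0) of the 7 called members in each library, IgG in blue and 5E1 in red, with a marker shape for each replicate number and the mean with SD (n = 3) beside the points. The IgG and 5E1 points do not overlap in any of the 7 panels, and IgG replicate 3 of Wdr35 (28.0 CPM) lies closest to the 5E1 points of its gene.

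RFX transcription factors bind the X-box, a motif found before many ciliary genes. It was searched on both strands as GTTNC, a spacer of 2 to 5 bases, and GNAAC in RefSeq promoter windows of 300 bases (250 before to 50 after the transcription start, GRCm38.p6). Of the 37 members, 33 had a window, and 2 of these (6.06%), Bbs7 and Ift57, held a match, against 833 of 27025 symbols in the table (3.08%). Both windows are printed because they are the only ones among the members with a match, Bbs7 being a called gene and Ift57 not. Each is given 5′ to 3′ on the strand of the gene with the X-box match in capitals.
Bbs7: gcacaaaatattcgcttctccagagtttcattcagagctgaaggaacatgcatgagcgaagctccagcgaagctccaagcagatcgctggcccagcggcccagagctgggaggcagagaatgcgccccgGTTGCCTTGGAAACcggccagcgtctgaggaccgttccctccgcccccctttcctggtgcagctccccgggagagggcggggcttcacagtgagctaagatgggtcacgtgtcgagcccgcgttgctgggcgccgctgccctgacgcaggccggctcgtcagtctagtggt
Ift57: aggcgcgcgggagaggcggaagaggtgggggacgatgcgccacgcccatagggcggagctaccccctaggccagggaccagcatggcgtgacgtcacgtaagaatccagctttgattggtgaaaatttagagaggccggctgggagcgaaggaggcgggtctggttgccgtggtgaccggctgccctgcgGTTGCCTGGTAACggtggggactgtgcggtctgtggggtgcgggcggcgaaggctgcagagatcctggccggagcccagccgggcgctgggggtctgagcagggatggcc
The Bbs7 window lies at chr3:36613340-36613639 on the minus strand, and its match, GTTGCCTTGGAAAC, begins 121 bases before the start. The Ift57 window lies at chr16:49699044-49699343 on the plus strand, and its match, GTTGCCTGGTAAC, begins 60 bases before the start. Ift57, which encodes a peripheral IFT-B subunit, gave 12.1, 14.7 and 12.96 CPM in IgG and 13.4, 13.9 and 12.04 CPM in 5E1. Its change was -0.01 (95% interval -0.31 to 0.29), with a sign that turned under limma-voom. A match is a description of letters, not a site, and nothing is read from this pair about the factors.

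Of 11 listed RFX and ciliogenic transcription factor genes, 6 had enough reads to be tested. Of these 6, 2 (33.3%) were called higher and 1 (16.7%) lower, against 12.1% and 11.1% of all genes. Rfx3 (log2 fold change 0.45, edgeR adjusted p 0.0144) and Rfx2 (0.41, 0.0340), activators of ciliary genes, rose, and Rfx5, known for the control of MHC class II genes, fell (-0.61, 0.0124). The number called higher was 0 without IgG replicate 3 or 5E1 replicate 3 and 1 without IgG replicate 1, IgG replicate 2 or 5E1 replicate 1. Rfx5 was no longer called without IgG replicate 2 or 5E1 replicate 3.

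Read counts per kilobase of exon compare the levels of the members with each other. The length merges all annotated exons of a gene (1.525 to 16.348 kb among the members), not those of the expressed transcript alone. The order of the genes therefore depends on the annotation. In IgG, the members ran from 0.585 CPM per kb (Bbs10) through a median of 4.50 to 30.2 ± 4.79 (Ift20). Ift43 (16.5 CPM per kb), Ift74 (11.2) and Kif3a (9.72) followed Ift20, whose product is small and also works outside the cilium. Gpr161 stood at 8.44 and Evc at 8.18 CPM per kb, close to each other and above Sufu (7.24), Tulp3 (7.01) and Bbs7 (3.03).

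Lung multiciliated cells also express IFT and BBSome genes, at high levels for their motile cilia. Of 32 markers of these cells with a length, the median was 0.174 CPM per kb in IgG and 0.251 in 5E1, against 4.50 for the members in IgG. Tppp3, also made outside these cells, was the highest, at 38.3 CPM per kb in IgG and 45.7 in 5E1. The factor gene Foxj1 was at 2.75 ± 1.20 CPM in IgG and 3.25 ± 2.47 in 5E1, and the axonemal dynein gene Dnah5 at 0.752 and 0.936 CPM. Mcidas was at 0 in 2 libraries, and Ccdc153, Tmem212, Tekt4, Sntn and Armc4 in 1 each. The summed level of these markers was 90.6 to 120 CPM in IgG and 120 to 145 in 5E1. Tppp3 gave 66.1 to 78.8 CPM of that sum in IgG and 81.6 to 86.8 CPM in 5E1. Without Tppp3, left out after its share was seen, the sums overlapped, at 24.5 to 40.8 CPM in IgG and 35.8 to 60.3 CPM in 5E1. None of the 22 that could be tested was called by edgeR, against 23.2% of all genes. At an unadjusted p under 0.05, 3 were higher (Ccno, Tppp3 and Dynlrb2) and 1 lower (Dnaic2). Ccno stood at 2.53 CPM in IgG and 5.24 CPM in 5E1 (edgeR adjusted p 0.0544), and Dnaic2 at 5.22 and 3.34 CPM (0.0669). DESeq2 called 1 marker higher and limma-voom 1 in each direction, and the median log2 fold change was 0.31. The part of multiciliated cells in the member values was not tested.

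**Figure D4:**
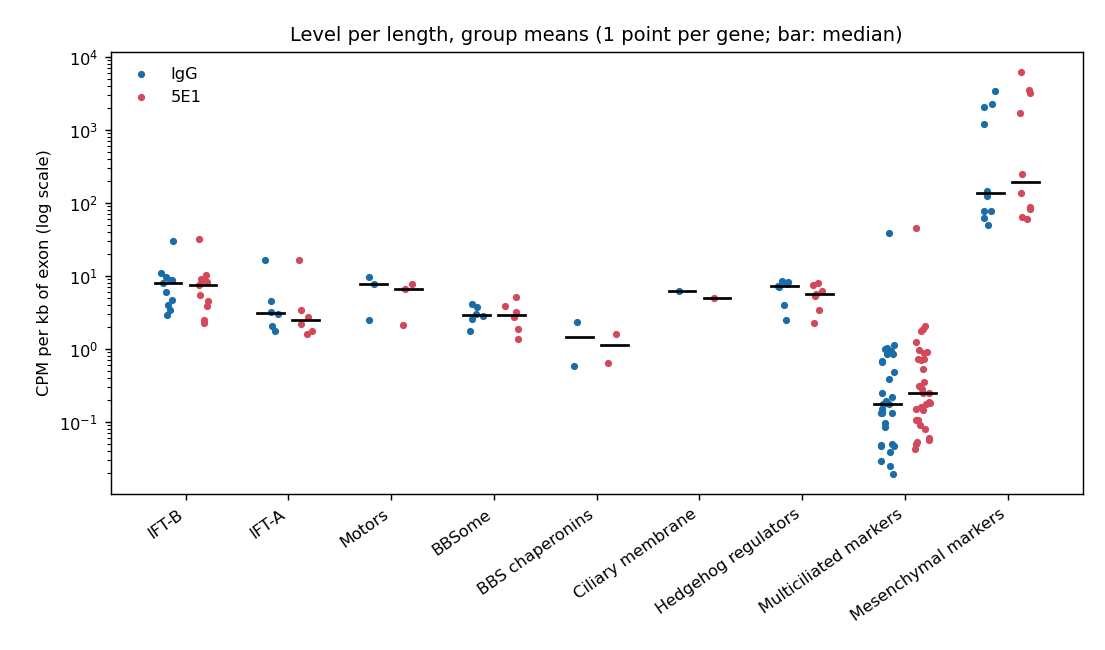
Group means in CPM per kilobase of exon (y axis, log scale) for 36 of the 37 members by role, the multiciliated cell markers and the mesenchymal markers, with 1 point per gene, IgG in blue, 5E1 in red and a bar at the median. The median of 4.50 over all 37 members in IgG lies between the multiciliated median of 0.174 and the mesenchymal median of 136.

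Further cilium genes outside the 37 were read the same way. Of 18 other IFT, BBSome and dynein-2 genes, 2 (11.1%) were lower, the same share as the 11.1% of all genes, and none higher, with a median log2 fold change of -0.09. Ttc26, an IFT-B gene, fell from 12.3 ± 0.716 to 7.83 ± 1.59 CPM (edgeR adjusted p 0.0228), and Mkks, the third BBS chaperonin gene, from 15.8 ± 1.58 to 10.3 ± 2.33 CPM (0.0302). None of the 18 was called without IgG replicate 1, and 1 was called without IgG replicate 2, 5E1 replicate 1 or 5E1 replicate 3. The transition zone, the gate at the base of the cilium, had 3 of 20 genes (15%) lower, against 11.1% of all genes, and none higher, with a median of -0.26. Tctn3 (-0.52, edgeR adjusted p 0.0117), Cep290 (-0.54, 0.0124) and Invs (-0.36, 0.0344) were these genes. The number called was 1 without IgG replicate 2, 6 by limma-voom, 7 with no low-count filter and 8 with library size alone. Of all genes, limma-voom called 11.7% lower, the fit with no low-count filter 7.60% and library size alone 20.2%.

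Of 20 basal body genes, which organise the base from which the cilium grows, edgeR called none, against 23.2% of all genes. At an unadjusted p under 0.05, 4 were lower and none higher, DESeq2 called none and limma-voom 1, and library size alone called 7 lower. Of all genes, library size alone called 20.2% lower. Leaving out single libraries gave up to 2 lower calls (without IgG replicate 3) and 1 higher (without 5E1 replicate 1), and the median was -0.15. Without IgG replicate 3, 6.78% of all genes were called lower, and without 5E1 replicate 1, 1885 of 16764 genes were called higher.

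Of 12 genes of cilium disassembly, 7 (58.3%) were lower, against 11.1% of all genes, and none higher. Their median log2 fold change was -0.67. Nedd9, the scaffold that activates Aurora A at the basal body, gave 278, 289 and 292 CPM in IgG and 168, 185 and 188 CPM in 5E1. Its groups were far apart (log2 fold change -0.67, edgeR adjusted p 0.000515). Plk1 (-2.42, edgeR adjusted p 0.000788), Nek2 (-1.86, 0.000922) and Aurka (-1.52, 0.00273), kinases that also drive mitosis, fell more. Hdac6, the tubulin deacetylase that acts in the same step, did not pass the test (-0.20, 0.191). Leaving out single libraries left 5 to 7 of these genes called. Of 20 proliferation genes, 18 (90%) were lower, against 11.1% of all genes, and none higher, with a median of -1.93. Their summed level was 1018 to 1107 CPM in IgG and 277 to 544 CPM in 5E1. The number called lower was 11 without any 1 of the IgG libraries, and 10 without 5E1 replicate 3 or with no low-count filter. The part of cycling cells in the member values was not tested.

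Among 23 genes of protein kinase A, GLI kinases and GLI turnover, 3 were higher and 5 lower, with a median of -0.09. Spop, an adaptor for GLI degradation, rose (0.47, edgeR adjusted p 0.00626), as did the regulatory subunit gene Prkar1b (0.53, 0.0165) and Atp6ap2 (0.31, 0.0224). Prkar2b (-0.83, edgeR adjusted p 0.0104), Prkaca (-0.37, 0.0220), Prkacb (-0.31, 0.0264), Csnk1a1 (-0.29, 0.0412) and Ankmy2 (-0.31, 0.0473) fell. Prkaca and Prkacb encode the catalytic subunits of protein kinase A, which acts downstream of GPR161. Atp6ap2, Prkacb, Csnk1a1 and Ankmy2 were named after their values were seen, to complete the counts. The higher calls numbered 1 without IgG replicate 1 or 2 and with library size alone. The lower calls numbered 2 without IgG replicate 1 or 3, 1 without IgG replicate 2 or 5E1 replicate 3, 3 without 5E1 replicate 1, and 9 with library size alone. That last setting called 20.2% of all genes lower.

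**Figure D5:**
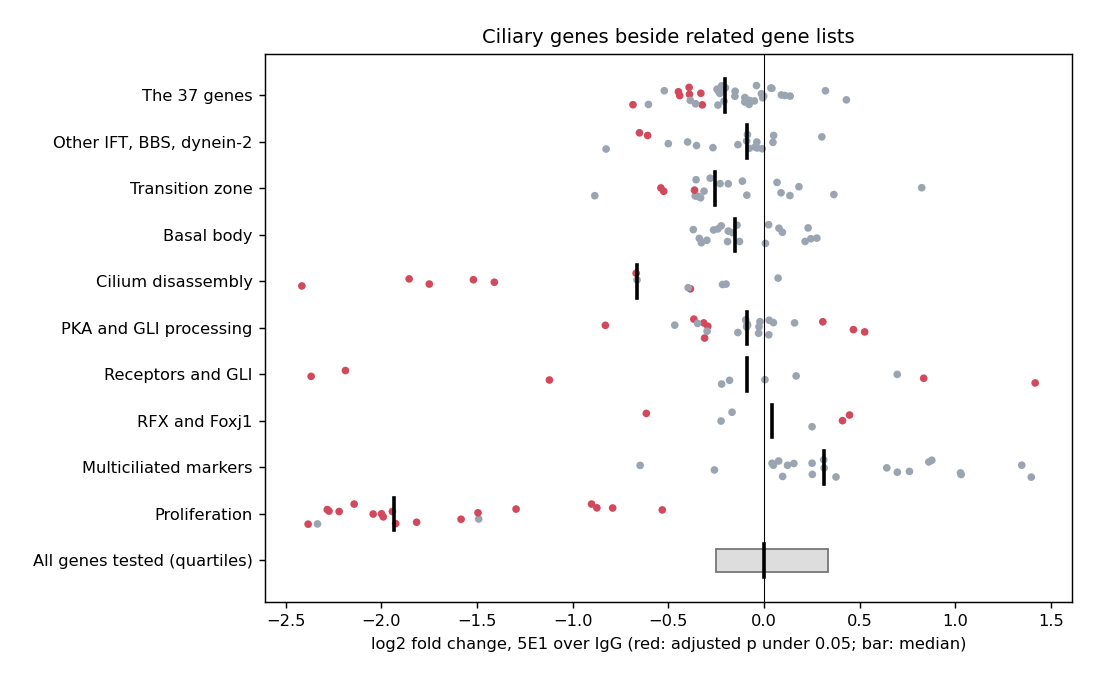
Log2 fold change (5E1 over IgG, x axis) of the tested genes of each list, with called genes in red, a black bar at the median and the quartiles of all genes tested as a box in the lowest row. Proliferation genes (median -1.93) and cilium disassembly genes (-0.67) lie farther to the lower side than the 37 members (-0.20), and multiciliated markers (0.31) to the higher side.

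Markers of other cells also differed between the groups. Of 9 leukocyte markers, 7 (77.8%) were higher, against 12.1% of all genes. Their summed levels were 106 to 123 CPM in IgG and 237 to 399 CPM in 5E1. The 10 epithelial markers summed to 421 to 677 CPM in IgG and 475 to 1448 CPM in 5E1. The highest sum was in 5E1 replicate 2, in which 17 members had their lowest value. Scgb1a1 alone gave 239 to 489 CPM of that sum in IgG and 256 to 999 CPM in 5E1. Of these epithelial markers, 2 (20%), Hopx and Ager, were called higher, against 12.1% of all genes, and none lower. The 7 endothelial markers summed to 101 to 124 CPM in IgG and 115 to 254 CPM in 5E1, again highest in 5E1 replicate 2. The 10 mesenchymal markers, collagen genes among them, summed to 72700 to 91672 CPM in IgG and 109058 to 158413 CPM in 5E1, and their median was 136 CPM per kb in IgG and 193 in 5E1. Collagen genes and Eln make up most of that sum. Of the 10 mesenchymal markers, 4 (40%) were higher, against 12.1% of all genes, and 1 (10%) lower, against 11.1%. The lower one, Foxf1, is a transcription factor gene of lung mesenchyme. It fell from 188 ± 6.17 to 145 ± 25.3 CPM (edgeR adjusted p 0.0376), while Tbx4 stood at -0.09. The higher calls numbered 2 without IgG replicate 2 or 5E1 replicate 3, 0 without IgG replicate 3 and 6 without 5E1 replicate 2, and 2 with library size alone and 7 with no low-count filter. Foxf1 was no longer called when any 1 library other than 5E1 replicate 2 was left out, nor with the filter of 5 CPM in 3 libraries. The part of these differences in the member values was not tested.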

How the data were processed

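Each library has 1 deposited file of raw counts per gene symbol, which the authors made from libraries of a stranded poly(A) kit, per the labels' protocols. The submitters' processing notes name build mm10, R 3.5.1, DESeq2 1.10.0, HTSeq 0.6.0, bedtools 2.17.0, Picard 1.126 and STAR 2.5.0c, with no role or order. The sources used here give no annotation, strand setting or duplicate handling, which leaves counts of genes with overlapping exons (6 of 37 members) uncertain. The 5 summary lines per file, which hold 36.4% to 54.7% of a library as reads assigned to no gene, entered neither library sizes nor tests.

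Genes were kept with filterByExpr (minimum count 10, minimum total 15) and scaled by TMM. The test was edgeR 4.0.16's quasi-likelihood test in R 4.3.3 (robust, group as the only term, two-sided). Benjamini-Hochberg adjustment ran over all 16198 genes, and an adjusted p under 0.05 was called. CPM use TMM-scaled library sizes. Log2 fold changes use a prior count of 0.125, and intervals are 95% t intervals on the fit's degrees of freedom. Other scalings tried were library size alone and RLE size factors, and other tools limma-voom (limma 3.58.1) and DESeq2 1.42.0. Further alternatives were no low-count filter, at least 5 CPM in 3 libraries, the replicate number as a block and each library left out. A term that marks the libraries lacking Y-linked reads was added after the data were seen. Positions, exon lengths and overlaps come from GENCODE M21 on GRCm38, and promoter windows from RefSeq. Within each group, replicates differed beyond sampling noise (chi-square over degrees of freedom 14.8 to 50.5).

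Of the 37 members, 36 are described and 1 is not reported here, though it stays in the counts and medians. The text gives library values for every called member, the 3 of lowest p among the others and, among the members reported, the most abundant of a role. Of each further list, up to 4 genes of smallest p are named, and Bbs9 and others outside this rule were named after their values were seen. Members and lists were chosen with earlier results of these data known.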

Additional observations from a re-analysis of the deposited data

How the results depend on the processing

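The number of members called lower was 7 to 8 with RLE size factors, with either other tool and under both filters on low counts, and 14 with library size alone. It was 3 to 6 when single libraries were left out, fits that called 6.44% to 10.9% of all genes lower, against 11.1% in the reported fit. The number called higher was 0, except 1 (Bbs9) with no low-count filter and 0 to 1 over the fits without 1 library. The median of the members was -0.35 with library size alone and -0.21 to -0.13 without single libraries. A term that marks libraries lacking Y-linked reads, chosen after seeing the data, gave 7 lower, 0 higher and a median of -0.20, with Ift22 called in place of Inpp5e. The cause of these differences was not tested, except that fits without a library have fewer samples.

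With the replicate number as a block, 7 members were lower, none higher and the median was -0.21. Of these, 6 were shared with the fit without the block, Inpp5e being lost and Sufu gained, and 3220 in place of 3757 genes were called in all. Libraries with the same number did not deviate together (correlations of -0.11, -0.04 and -0.09). With 3 libraries per group a weak pairing would not be seen, so these values do not settle whether the numbers pair the samples.

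The sign turned in 27 instances over 10 of the 36 members described, all with a reported log2 change of 0.14 or less in size. With library size alone these were Ift20 (-0.0304), Ift27 (-0.107), Bbs4 (-0.0559) and Bbs10 (-0.0132), and with limma-voom Ift27 (-0.00521) and Ift57 (0.00714). The filter of 5 CPM turned Ift57 (0.0184), Ift43 (0.0310) and Evc (0.0247), RLE turned Ift43 (0.00579) and Evc (0.00106), and DESeq2 turned Ift43 (0.00518) and Evc (0.00129). Over the fits without 1 library, the change ranged from -0.0713 to 0.130 for Ift27, from -0.0782 to 0.0597 for Ift57, from -0.128 to 0.0297 for Ift88 and from -0.146 to 0.0217 for Ift172. The ranges were -0.0371 to 0.0542 for Ift43, -0.0127 to 0.292 for Bbs10, -0.0968 to 0.112 for Evc and -0.131 to 0.0428 for Evc2. Depth limits Bbs10, with 283 reads in all, most.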

Other observations

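The X-box search gave different shares in the other lists, some above and some below that of the members. A match stood in the promoter window of 11 of 25 multiciliated cell markers with a window (44%), in 5 of 17 transition zone genes (29.4%) and in 3 of 16 other IFT, BBSome and dynein-2 genes (18.8%). Cilium disassembly genes had 1 of 10 (10%) and basal body genes 1 of 19 (5.26%). Mesenchymal markers had 2 of 5 (40%), genes of protein kinase A and GLI turnover 3 of 16 (18.8%), and RFX and ciliogenic factor genes 1 of 10 (10%). Proliferation genes, hedgehog receptor and GLI genes, and epithelial, endothelial and leukocyte markers had 0. The members had 2 of 33 (6.06%) and the 27025 symbols of the RefSeq windows had 3.08%. These shares describe letters within 300 bases of 1 or more annotated starts per gene and were not tested.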
